A study of Mus musculus with 8 samples.

Results

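The kidney transcripts of the 7 mouse genes that encode the cell surface receptors and klotho co-receptors of the fibroblast growth factors (FGFs) were examined. They were taken by gene symbol and comprise the tyrosine kinase receptors Fgfr1, Fgfr2, Fgfr3 and Fgfr4, the receptor-like Fgfrl1, which has no tyrosine kinase domain, and the co-receptors Kl (alpha-klotho) and Klb (beta-klotho). All 7 were among the 55401 genes of the deposited table, and 6 of them were among the 15150 genes that passed a filter on low values. Kidney tissue of 8 diabetic mice had been sequenced with 1 library per mouse, 4 from mice treated with rFGF4 (numbered 1, 2, 3 and 5) and 4 from a db/db model group without rFGF4 (numbered 2, 3, 4 and 5). rFGF4 is a recombinant human FGF4 that was modified to be non-mitogenic, and the methods describe injection into the peritoneum and PBS as the vehicle. The labels name db/db, a leptin receptor mutation that causes obesity and type 2 diabetes, as the genotype of the comparison group and as the model of the series, and give only the treatment for the rFGF4 group. The text of the study instead describes the sequenced animals as mice made diabetic with streptozotocin (STZ), a toxin of the insulin-producing cells, and nothing in the files decides between the 2 descriptions. The labels give neither age nor dose, the study used male mice, and no non-diabetic kidney is part of this series.

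FGF receptors bind their ligands at the cell surface together with heparan sulfate, dimerise, and signal through FRS2 adaptors to the MAP kinase cascade, whose target genes include the Sprouty and Dusp feedback inhibitors. Paracrine FGFs such as FGF4 use heparan sulfate as their co-factor, whereas the endocrine FGFs need a klotho protein: alpha-klotho for FGF23, which lowers phosphate reabsorption and active vitamin D in the kidney, and beta-klotho for FGF21 and FGF15/19. In the kidney, alpha-klotho is known chiefly from the distal convoluted tubule and also from the proximal tubule, and Fgfr1 from podocytes among other cells. FGF4 is known to act mainly through the c splice forms of Fgfr1, Fgfr2 and Fgfr3 and through Fgfr4. The values below are per gene and do not separate the splice forms.

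Kl and Klb are paralogues that stood at opposite ends of the range of levels, and the 250 bases before the RefSeq start of each are therefore printed here (RefSeq, GRCm38.p6, plus strand), with every CG dinucleotide in capitals.
Kl, chr5:150952357-150952606: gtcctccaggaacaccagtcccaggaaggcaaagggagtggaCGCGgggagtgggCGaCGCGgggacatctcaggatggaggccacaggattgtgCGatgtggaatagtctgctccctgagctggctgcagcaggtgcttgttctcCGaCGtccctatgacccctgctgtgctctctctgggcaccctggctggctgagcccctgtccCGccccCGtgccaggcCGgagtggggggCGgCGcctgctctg
Klb, chr5:65348161-65348410: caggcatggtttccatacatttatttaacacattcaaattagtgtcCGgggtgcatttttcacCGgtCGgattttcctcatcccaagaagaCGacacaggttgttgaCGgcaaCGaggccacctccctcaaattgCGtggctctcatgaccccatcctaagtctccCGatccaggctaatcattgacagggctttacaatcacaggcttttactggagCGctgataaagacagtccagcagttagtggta
The Kl window ends at the base before the gene start of the annotation used for positions below (GENCODE), whereas that annotation starts Klb earlier, so that the last 97 bases of the Klb window lie inside its span there. The Kl window held 13 CG dinucleotides and the Klb window 9. Of the 32851 promoter windows in that table, 31.5% held at least 13 and 40.3% at least 9, with a median of 6. Windows were found for 6 of the 7 genes, and their CG number ran from 2 in Fgfr2 to 30 in Fgfrl1. This is a description of the sequence and bears on no measurement of methylation or binding in these kidneys.

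The authors gave expression as FPKM, a fragment count divided by the length of the gene's exons and by the size of the library, which allows levels of different genes to be set side by side. The table holds no counts, and a value of 0.0001 stands where nothing was estimated, so the depth behind each value is unknown. A rough relative depth was taken as the inverse of the most frequent FPKM ratio to db/db mouse 2 among genes of very low FPKM. It ran from 0.907 to 1.094 in rFGF4 mice and from 1 to 1.125 in db/db mice, with db/db mouse 2 set to 1. Summed FPKM ran from 389407 to 529835 in rFGF4 mice and from 481321 to 552604 in db/db mice, and mitochondrial transcripts took 19.0% to 36.0% and 24.4% to 38.4% of it. Kidney markers were present in every library, and the adipocyte list (the labels' extraction text mentions adipose tissue) summed to no more than 0.579 FPKM, with Retn listed at 0.0001 in all 8. Among the 15150 tested genes, rFGF4 mouse 1 was the highest of the 8 libraries in 48.1%. Its proximal tubule markers summed to 0.256 times and its distal convoluted tubule markers to 0.218 times the median of the other 7 libraries, while its stroma markers stood at 4.59 times and its macrophage markers at 7.17 times. In db/db mouse 5 the stroma, macrophage and B cell and lymph node markers stood at 4.87, 7.70 and 21.8 times the median of the other 7. For several of the results below, values without one or both of them are given beside the result.

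Kl was the most abundant of the 7 transcripts, with a mean of 39.3 FPKM over the 8 kidneys, and Klb was the least abundant. The levels in order were Kl, Fgfr4 (13.0 FPKM), Fgfr1 (5.63 FPKM), Fgfrl1 (3.43 FPKM) and Fgfr3 (3.41 FPKM) side by side, Fgfr2 (1.36 FPKM) and Klb. Within libraries, Kl was on average 2.71-fold above Fgfr4, in 7 of 8 kidneys, and Fgfr4 was 2.38-fold above Fgfr1 in all 8. Fgfr1 lay 1.61-fold above Fgfr3 and 1.62-fold above Fgfrl1, and Fgfr3 and Fgfrl1 lay 2.52-fold and 2.50-fold above Fgfr2, each in 8 of 8 kidneys. All 21 pairs of genes were compared by a two-sided exact sign-flip permutation test over the 8 libraries, and 20 had an adjusted p under 0.05 (Benjamini-Hochberg, largest adjusted p = 0.0164). Of these, 6 were pairs with Klb, which was at the floor in most libraries, and 14 came from the 15 pairs of the other 6 genes. The 1 pair that did not was Fgfr3 and Fgfrl1, whose mean log2 ratio was 0.01 ± 0.41 (SD, n = 8; exact permutation p = 0.961), with Fgfr3 the higher in 5 kidneys and Fgfrl1 in 3. The order was the same in all 8 kidneys for 18 pairs. Both exceptions besides Fgfr3 and Fgfrl1 came from rFGF4 mouse 1, where Kl lay below Fgfr4 and just below Fgfr1. The test of 8 libraries can give no p below 0.0078.

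**Figure D1:**
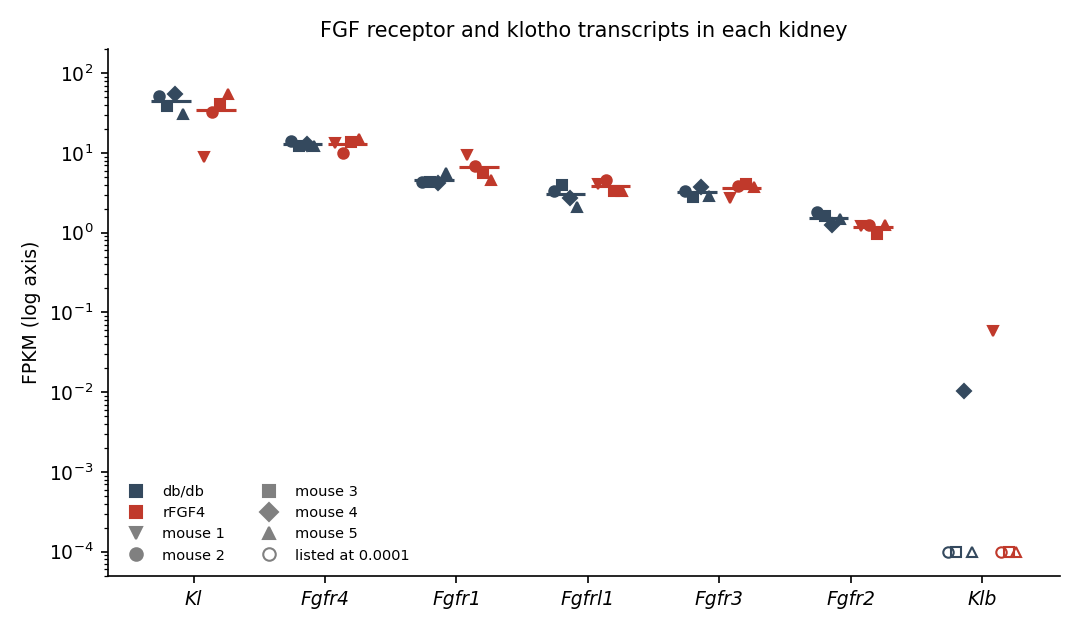
FPKM of the 7 genes in each kidney on a log axis, db/db in dark blue and rFGF4 in red, with the mouse number as the symbol, a horizontal line at the group mean, and open symbols for values listed at 0.0001. Kl runs from 8.90 to 55.6 FPKM, Fgfr4 from 10.1 to 14.9 FPKM, and 6 of the 8 Klb values are listed at 0.0001.

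The question of the comparison was what rFGF4 changed in the diabetic kidney, here in the receptors to which it and the other FGFs bind. None of the 6 tested genes passed the study's threshold (a fold change of 1.5 or more, or of 0.67 or less, and an unadjusted p under 0.05), which 1.53% of all tested genes passed, and none had an adjusted p under 0.05, as was the case for 0% of all tested genes (limma on log2(FPKM + 1), Benjamini-Hochberg, smallest adjusted p = 0.918). At an unadjusted p under 0.05, which 4.62% of all tested genes reached in the FPKM as deposited, the number was also 0 of 6. Values under other scalings are given with Fgfr1 and Fgfr2 and in the closing section. Over all tested genes the median of the log2 fold changes was 0.09, and 67.1% of the genes were higher in rFGF4 mice, as were Fgfr1, Fgfrl1, Fgfr3 and, by 0.003 and with a sign that turned under other scaling, Fgfr4. Fgfr2 and Kl were the lower ones. Fold changes below are on the log2(FPKM + 1) scale, which understates the change of low genes. The sources give no litter, cage or library batch for the single mice, so a batch that ran along with treatment could not be told from it. The p-values of the group comparison set the difference against the variation between these 8 kidneys. In limma that variance is drawn partly from the other genes. In bulk kidney tissue, fewer cells of a type and less RNA per cell cannot be told apart.

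Fgfr1, the receptor on which the study of FGF4 centres, measured 9.33, 6.95, 5.69 and 4.60 FPKM in rFGF4 mice 1, 2, 3 and 5. In db/db mice 2, 3, 4 and 5 it measured 4.27, 4.36, 4.15 and 5.67 FPKM. Of the rFGF4 mice, 3 lay above every db/db mouse, mouse 3 only just so, while rFGF4 mouse 5 lay below db/db mouse 5 and the groups overlapped. The means were 6.64 ± 2.03 (SD, n = 4) and 4.61 ± 0.708 (SD, n = 4), which gave a log2 fold change of 0.42 (standard error 0.20, 95% interval -0.04 to 0.87) with an adjusted p of 0.918 in limma. Its two-sided exact permutation p was 0.0571, where 4 mice against 4 allow no value below 0.0286. Without rFGF4 mouse 1 the log2 fold change was 0.26, and without that mouse and db/db mouse 5 together it was 0.34. With all 8 libraries scaled to a common median ratio it was 0.30 (standard error 0.12). Podocyte markers summed to between 85.1 and 133.9 FPKM in rFGF4 mice and to between 59.1 and 112.6 FPKM in db/db mice, 8 of 8 were higher in the rFGF4 group, and 1 of them (Synpo) passed the study's threshold, which 1.09% of all tested genes passed upward. Without rFGF4 mouse 1 it was again Synpo alone (0.997% of all genes), without rFGF4 mouse 5 it was Cdkn1c and Ptpro but not Synpo (2.77% of all genes), and without db/db mouse 5 it was all 3 (2.22% of all genes). The ratio of Fgfr1 to that sum was 0.0581 ± 0.00802 (SD, n = 4) and 0.0554 ± 0.0140 (SD, n = 4) in the 2 groups, and ran from 0.0388 to 0.0723 over the 8 kidneys, a span of 1.86 times where Fgfr1 itself spanned 2.25 times. The 2 ratios thus differed by less than the SD of either group. The ratio of Fgfr1 to the stroma markers was 0.160 ± 0.0645 and 0.213 ± 0.123 (SD, n = 4 each) and spanned 6.51 times, from 0.050 to 0.326. The part of either cell type in the Fgfr1 values was not tested. Among 13198 tested genes with a mean of at least 1 FPKM, the profiles most like that of Fgfr1 over the 8 libraries were those of the small nucleolar RNA Snora43, of Synrg and of Appbp2, with root mean square differences of 0.102, 0.104 and 0.109 SD. The gene (ENSMUSG00000031565) lies on chromosome 8 from 25513654 to 25575718 on the plus strand of GRCm38, and 164 of its exon bases overlap the antisense gene Gm16159.

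Fgfr2, whose b and c splice forms serve epithelial and mesenchymal cells, was the rarest receptor. In the deposited FPKM it was the only 1 of the 7 genes whose groups did not overlap. It measured 1.21, 1.24, 0.968 and 1.25 FPKM in rFGF4 mice 1, 2, 3 and 5, and 1.81, 1.63, 1.27 and 1.47 FPKM in db/db mice 2, 3, 4 and 5. All 4 rFGF4 mice lay below all 4 db/db mice, though the highest of the former and the lowest of the latter were only 0.0165 FPKM apart. Groups that did not overlap, with rFGF4 lower, were found for 0.667% of all tested genes, and in either direction for 3.33%. The means were 1.17 ± 0.134 (SD, n = 4) and 1.54 ± 0.230 (SD, n = 4), with a log2 fold change of -0.23 (standard error 0.12, 95% interval -0.49 to 0.04). The adjusted p was 0.918 in limma, and the exact permutation p was 0.0286, the smallest that this design allows. The log2 fold change lay between -0.28 and -0.18 when each mouse was left out in turn, and was -0.37 (standard error 0.19) with 0.1 in place of 1 FPKM added before the logarithm. With the libraries scaled to a common median ratio it was -0.30 (standard error 0.11). Scaled to the same sum without mitochondrial genes, it was -0.17 (standard error 0.12). After this last scaling rFGF4 mice 1 and 2 lay above db/db mouse 4, so the separation of the groups depended on the scaling. The most similar profiles were those of Ankrd37, Mfsd2a and 2610306M01Rik, at differences of 0.237, 0.337 and 0.363 SD. Fgfr2 (ENSMUSG00000030849) lies on the minus strand of chromosome 7 from 130162451 to 133123350 in the annotation, a span that includes 1 of its 27 transcripts reaching into Ctbp2. These 2 genes share 314 exon bases on the same strand, or 3.04% of the exon bases of Fgfr2, and reads there could have been assigned to either gene.

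Fgfr3, which restrains bone growth in cartilage, measured 2.70, 3.91, 4.13 and 3.70 FPKM in rFGF4 mice 1, 2, 3 and 5, and 3.38, 2.85, 3.73 and 2.90 FPKM in db/db mice 2, 3, 4 and 5. The groups overlapped, and rFGF4 mouse 1 was the lowest of all 8 kidneys. The means were 3.61 ± 0.631 (SD, n = 4) and 3.21 ± 0.418 (SD, n = 4), and the log2 fold change was 0.12 (standard error 0.15, 95% interval -0.21 to 0.46, exact permutation p = 0.371). It was 0.23 without rFGF4 mouse 1. The nearest profiles were those of Acot12, an acetyl-CoA hydrolase, of Slc25a15, the mitochondrial ornithine carrier, and of Aass, an enzyme of lysine breakdown, at 0.166, 0.204 and 0.221 SD. Fgfr3 (ENSMUSG00000054252) lies on the plus strand of chromosome 5 from 33721674 to 33737068, and 998 of its exon bases, 13.9%, overlap the antisense gene G630022F23Rik.

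Fgfr4, the receptor that pairs with beta-klotho in liver, had the highest FPKM of the 4 kinase receptors in each of these 8 kidneys and the narrowest range of the 6 tested genes, with the highest kidney 1.47 times the lowest. It measured 13.4, 10.1, 13.8 and 14.9 FPKM in rFGF4 mice 1, 2, 3 and 5, against 14.2, 12.4, 13.1 and 12.1 FPKM in db/db mice 2, 3, 4 and 5. The rFGF4 group held both the highest and the lowest kidney, and rFGF4 mouse 1, which stood apart in so many genes, lay in the middle. The means were 13.1 ± 2.06 (SD, n = 4) and 12.9 ± 0.910 (SD, n = 4), with a log2 fold change of 0.003 (standard error 0.14, 95% interval -0.31 to 0.31, exact permutation p = 1). The interval corresponds to between 0.808-fold and 1.24-fold, so a change of 1.5-fold in either direction lies outside it. The sign of so small a value turned with the scaling of the libraries and with the mouse left out. Its coefficient of variation in db/db mice, 7.03%, was at the 6.15th percentile of all tested genes, whose median was 22.5%. In rFGF4 mice it was 15.8%, at the 22.7th percentile. Retreg1, R3hdm2 and Sypl had the nearest profiles, at 0.309, 0.310 and 0.368 SD. Fgfr4 (ENSMUSG00000005320) lies on the plus strand of chromosome 13 from 55152640 to 55168759, with no overlapping exon of another gene.

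Fgfrl1, a receptor-like protein that binds FGFs without a kinase and is needed for kidney development, measured 4.09, 4.52, 3.33 and 3.31 FPKM in rFGF4 mice 1, 2, 3 and 5 and 3.38, 3.97, 2.74 and 2.11 FPKM in db/db mice 2, 3, 4 and 5. The groups overlapped, with the highest kidney in the rFGF4 group and the lowest, db/db mouse 5, in the other. The log2 fold change was 0.26 (standard error 0.18, 95% interval -0.14 to 0.66, exact permutation p = 0.171) between means of 3.81 ± 0.600 (SD, n = 4) and 3.05 ± 0.802 (SD, n = 4). Without rFGF4 mouse 1 and db/db mouse 5 together it was 0.11. The nearest profiles, those of Snord12, the transcription factor Tfap2b and the fatty acid elongase Elovl7, were no closer than 0.374 SD. The gene (ENSMUSG00000008090) lies on the plus strand of chromosome 5 from 108692382 to 108706924.

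**Figure D2:**
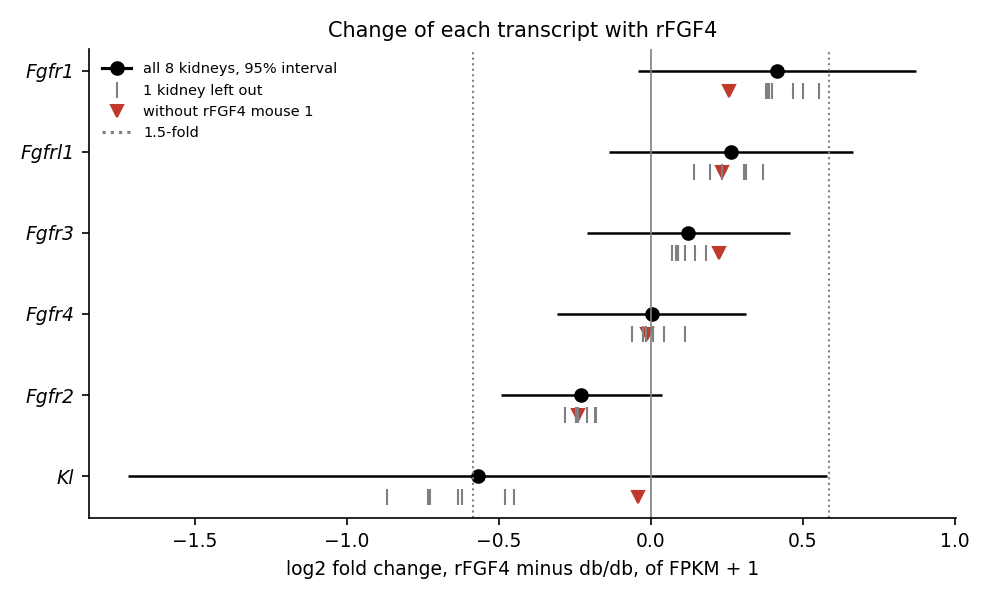
Log2 fold change (rFGF4 minus db/db, FPKM + 1) of the 6 tested genes, with black points and bars for all 8 kidneys and their 95% intervals, grey ticks for fits with 1 kidney left out, red triangles for the fit without rFGF4 mouse 1, and dotted lines at 1.5-fold. Every interval includes 0, the interval of Kl is the widest at -1.72 to 0.58, and without rFGF4 mouse 1 Kl stands at -0.04.

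The composition of the 4 kinase receptors followed from these levels. Fgfr4 made up 53.3% ± 6.74 (SD, n = 4) of their summed FPKM in rFGF4 mice and 58.0% ± 2.26 (SD, n = 4) in db/db mice, and was the largest share in each of the 8 kidneys. Fgfr1 made up 27.1% ± 7.42 and 20.7% ± 3.39 (SD, n = 4 each), Fgfr3 14.9% ± 3.33 and 14.4% ± 1.66, and Fgfr2 4.79% ± 0.717 and 6.92% ± 0.945. The sum itself was 24.5 ± 1.80 FPKM in rFGF4 mice and 22.3 ± 0.994 FPKM in db/db mice (SD, n = 4 each). The Fgfr1 share reached 35.0% and 31.3% in rFGF4 mice 1 and 2, above the 18.1% to 25.5% of the db/db mice, while in rFGF4 mice 3 and 5 it was 23.1% and 18.8%, within that range. The mean Fgfr1 share of the rFGF4 group was 24.4% without mouse 1. The Fgfr2 share was between 3.93% and 5.59% in rFGF4 mice and between 5.70% and 7.68% in db/db mice, so that these shares did not overlap either. The ratio of Fgfr1 to Fgfr2 was 7.72, 5.59, 5.88 and 3.68 in rFGF4 mice 1, 2, 3 and 5 and 2.36, 2.68, 3.28 and 3.85 in db/db mice 2, 3, 4 and 5, and overlapped through mouse 5 of each group. No test was run on these shares and ratios, which restate the levels of the genes in them.

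**Figure D3:**
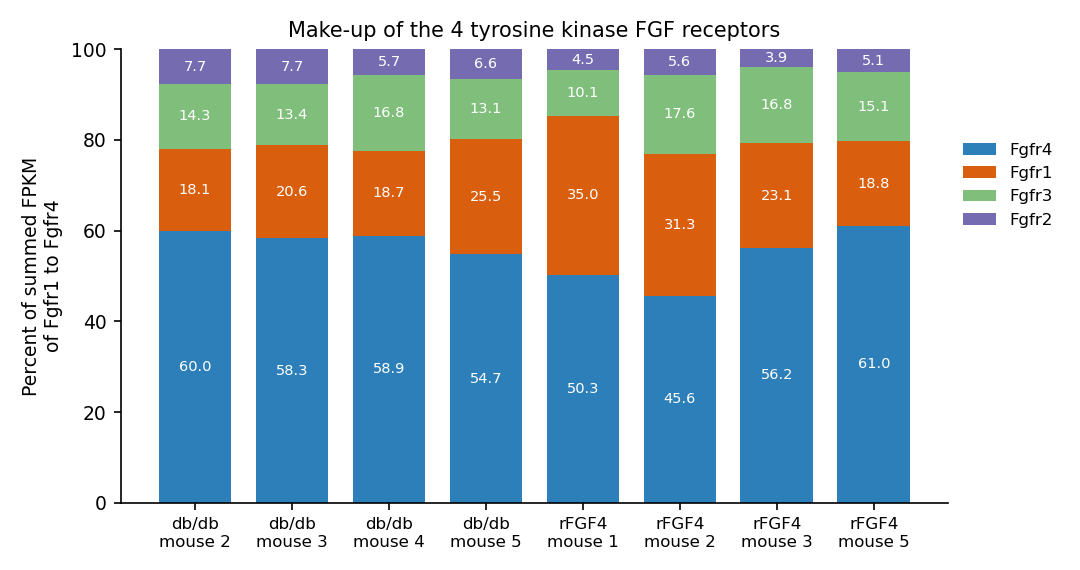
Percent of the summed FPKM of Fgfr1 to Fgfr4 taken by each receptor in each kidney, 1 bar per mouse, printed in the bars. Fgfr4 takes from 45.6% to 61.0%, and the purple Fgfr2 share at the top is at most 5.59% in the rFGF4 bars and at least 5.70% in the db/db bars.

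Kl, the FGF23 co-receptor, had the widest range of the 6 tested genes. It measured 8.90, 33.1, 40.8 and 54.4 FPKM in rFGF4 mice 1, 2, 3 and 5, and 52.2, 38.6, 55.6 and 30.8 FPKM in db/db mice 2, 3, 4 and 5. The value of rFGF4 mouse 1 was 0.218 times the median of the other 7 kidneys, and the other 3 rFGF4 mice lay within the range of the db/db mice. The means were 34.3 ± 19.1 (SD, n = 4) and 44.3 ± 11.6 (SD, n = 4), with a log2 fold change of -0.57 (standard error 0.50, 95% interval -1.72 to 0.58, exact permutation p = 0.514). Without rFGF4 mouse 1 the log2 fold change was -0.04, so that this 1 kidney carried nearly the whole difference between the means.

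The distal convoluted tubule markers (Slc12a3, Pvalb, Calb1, Trpm6 and Klhl3) were low in the same kidney. They summed to between 58.3 and 324.7 FPKM in rFGF4 mice and to between 177.8 and 346.9 FPKM in db/db mice, and the proximal tubule markers summed to between 357.0 and 1462 FPKM and to between 863.8 and 1701 FPKM. Of the distal convoluted tubule markers 5 of 5 were lower in rFGF4 mice and of the proximal tubule markers 7 of 8, and none passed the study's threshold. Over the 8 kidneys the highest Kl was 6.25 times the lowest, whereas the ratio of Kl to the distal convoluted tubule sum differed by at most 1.97 times and its ratio to the proximal tubule sum by at most 1.79 times. In rFGF4 mouse 1 the first ratio was 0.153, between the 0.111 and 0.220 of the other 7, while the second was 0.0249, below the 0.0274 to 0.0447 of the other 7. The group means of the first were 0.159 ± 0.0293 (SD, n = 4) in rFGF4 mice and 0.167 ± 0.0443 (SD, n = 4) in db/db mice, and those of the second 0.0300 ± 0.00618 and 0.0350 ± 0.00726 (SD, n = 4 each), both differences being below the SD of either group. The ratios of Fgfr4 and Fgfr3 to the proximal tubule sum spanned 4.878 and 3.455 times, where the 2 genes themselves spanned 1.473 and 1.529 times. The part of tubule content in the values of Kl, Fgfr3 and Fgfr4 was not tested further. The profiles most like Kl, all within 0.114 SD, were those of Zmynd10 at 0.0952 SD, Tspan3 at 0.105 SD and Ttc36. Kl (ENSMUSG00000058488) lies on the plus strand of chromosome 5 from 150952607 to 150993817.

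Klb, the co-receptor of FGF21 and FGF15/19, was listed at 0.0001 FPKM in 6 of the 8 kidneys. It was estimated at 0.0587 FPKM in rFGF4 mouse 1 and at 0.0103 FPKM in db/db mouse 4. It failed the filter in every library and no fold change was computed. Kl, its paralogue, was listed above 8 FPKM in each of the same libraries, and both lie on chromosome 5, as do 4 of the 7 genes. Klb (ENSMUSG00000029195) spans 65348314 to 65384007 on the plus strand. The endocrine ligands that use the klothos were as scarce, with Fgf15 listed at 0.0001 in all 8 kidneys, Fgf21 above it in 1 kidney (0.103 FPKM, rFGF4 mouse 2) and Fgf23 in 1 (0.0271 FPKM, db/db mouse 5).

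Across the 8 kidneys Fgfr1 and Kl ran in opposite directions. Their Pearson's r was -0.908 (permutation p = 0.00387) and Spearman's rho -0.786 (permutation p = 0.0279), on log2(FPKM + 1). This was 1 of 15 pairs of the 6 tested genes, and the adjusted permutation p was 0.0580 for r and 0.344 for rho, so neither passed 0.05 after correction. Left without rFGF4 mice 1 and 2, the 2 kidneys farthest from the median of Fgfr1, r was -0.727, and with each kidney left out in turn it lay between -0.954 and -0.772. Within each group, rFGF4 and db/db alike, the 2 genes ranked the 4 mice in exactly inverse order, but 4 mice are too few for a correlation within a group. The kidneys with the least Kl in each group, rFGF4 mouse 1 and db/db mouse 5, also had the highest stroma markers (107 and 113 FPKM in sum, against 12.8 to 52.6 FPKM in the other 6) and macrophage markers (427 and 459 FPKM, against 25.5 to 183 FPKM). The part of these cells in the relation was not tested. The 2 db/db extremes were mouse 5, with the most Fgfr1 (5.67 FPKM) and the least Kl (30.8 FPKM), and mouse 4, with the least Fgfr1 (4.15 FPKM) and the most Kl (55.6 FPKM). The ratio of Kl to Fgfr1 ran from 0.954 in rFGF4 mouse 1 to 13.4 in db/db mouse 4. Of the other 14 pairs none had an adjusted permutation p under 0.05.

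**Figure D4:**
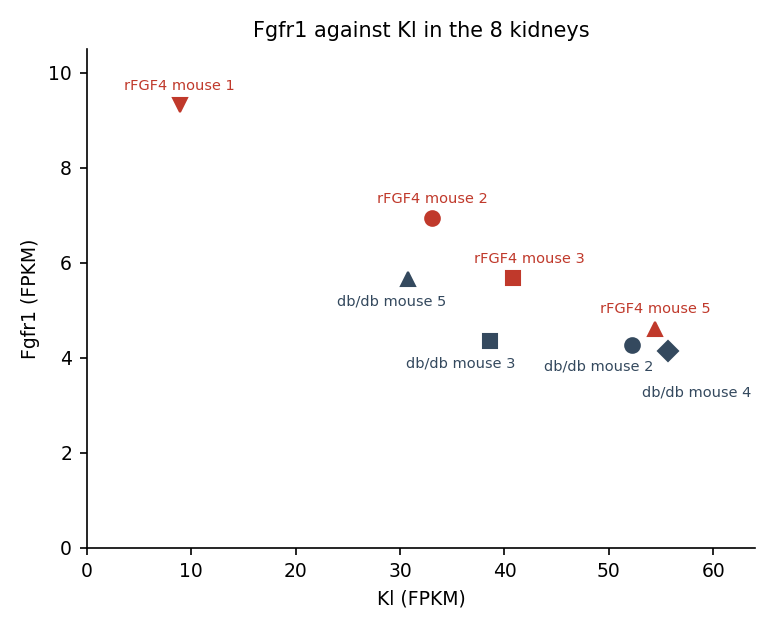
Fgfr1 against Kl in FPKM on linear axes from 0, 1 point per kidney, rFGF4 in red and db/db in dark blue with the mouse named beside it. rFGF4 mouse 1 stands alone at the upper left with 9.33 FPKM of Fgfr1 and 8.90 FPKM of Kl, and db/db mouse 4 at the lower right with 4.15 and 55.6 FPKM.

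Other genes of FGF signalling were followed as lists. Of 18 FGF ligands only Fgf1, Fgf2, Fgf9 and Fgf18 passed the filter, and 7 of them, the mouse gene of Fgf4 included, were listed at 0.0001 in all 8 kidneys. The injected protein is of human sequence and adds no transcript. Fgf18, which is known to signal chiefly through the c forms of Fgfr3 and Fgfr2 and through Fgfr4, measured 1.94, 3.10, 3.93 and 1.85 FPKM in rFGF4 mice 1, 2, 3 and 5 and 0.398, 1.55, 1.11 and 0.591 FPKM in db/db mice 2, 3, 4 and 5. All rFGF4 mice lay above all db/db mice, which 2.66% of the tested genes shared. It passed the study's threshold with a log2 fold change of 0.96 (standard error 0.25, adjusted p = 0.918 in limma, exact permutation p = 0.0286). For the 4 ligands together the median was 0.12 on the log2 scale, against 0.09 for all tested genes, and it was 0.062 without rFGF4 mouse 1.

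Between receptor and MAP kinase, none of 12 adaptor genes passed the study's threshold, though 11 of 12 were higher in rFGF4 mice at a median of 0.20 on the log2 scale (0.17 without rFGF4 mouse 1), and without db/db mouse 5 the adaptor Shc1 passed, as did 2.22% of all tested genes upward. The smallest p values belonged to the adaptor Crk (0.28, standard error 0.12) and to Frs3, a docking protein of FGF receptors (-0.41, standard error 0.19), and the 2 numbers are log2 fold changes. Of the 19 heparan sulfate proteoglycan and heparan sulfate enzyme genes, 16 were tested, 13 were higher, and none passed the threshold. Their median of 0.22 was 0.04 without rFGF4 mouse 1, where 10 of 16 were higher. Hs6st1, which adds 6-O-sulfate groups, had a log2 fold change of 0.37 (standard error 0.14) and Ext1, a heparan sulfate polymerase, of 0.27 (standard error 0.17). Of 7 membrane partners 3 were tested and none passed, with log2 fold changes of 0.35 (standard error 0.17) for Il17rd, an inhibitor of FGF signalling also called Sef, and 0.18 (standard error 0.18) for Flrt1.

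The feedback genes stood at the other end of the cascade from the receptors. Their list was chosen with earlier results of these data known, so the counts below are no independent test of it. All 10 that were listed had higher means in rFGF4 mice, 6 of the 10 passed the study's threshold, which 1.09% of all tested genes passed upward, and their median was 0.83 on the log2 scale. Without rFGF4 mouse 1 the median was 0.63, 9 of 10 were higher and 3 of 10 passed (Dusp4, Dusp6 and Etv5), where 0.997% of all genes did so upward. Without rFGF4 mouse 5 it was 9 of 10, where the share of all genes rose to 2.77%, and without db/db mouse 5 it was 7 of 10, where it was 2.22%. With rFGF4 mouse 1 and db/db mouse 5 both left out, 3 of 10 passed, against 1.33% of all genes. None had an adjusted p under 0.05 in limma. Dusp6, a phosphatase of the ERK kinases, measured 26.6, 32.1, 27.0 and 9.04 FPKM in rFGF4 mice 1, 2, 3 and 5, against 8.61, 10.1, 6.70 and 9.58 FPKM in db/db mice 2, 3, 4 and 5. Mice 1, 2 and 3 of the rFGF4 group lay far above the db/db mice and mouse 5 among them, the same mouse whose Fgfr1 was the lowest of its group. Its log2 fold change was 1.22 (standard error 0.36), and those of the other genes past the threshold were 1.25 for Dusp5 (standard error 0.50), 1.22 for Dusp4 (standard error 0.33), 0.85 for the transcription factor Etv5 (standard error 0.20), 0.81 for Spry4 (standard error 0.31) and 0.60 for Spry2 (standard error 0.26). In Etv5 and Dusp4 the groups did not overlap, with rFGF4 higher, as in 2.66% of all tested genes. In the same kidneys the feedback genes summed to 121, 101, 73.5 and 36.6 FPKM in rFGF4 mice 1, 2, 3 and 5, and the stroma markers to 107, 52.6, 31.3 and 19.4 FPKM. In db/db mice 2, 3, 4 and 5 the feedback genes summed to 35.3, 38.0, 30.3 and 51.2 FPKM and the stroma markers to 14.8, 23.3, 12.8 and 113 FPKM. The 2 sums ranked the mice in the same order within each group, but db/db mouse 5, with the most stroma markers of the 8, had a lower feedback sum than rFGF4 mice 1, 2 and 3. The macrophage markers (427, 183, 59.5 and 34.6 FPKM) and the podocyte markers (134, 122, 110 and 85.1 FPKM) also ranked the 4 rFGF4 mice in that order. Of the stroma markers 6 of 6 were higher in rFGF4 mice and none passed the threshold, 5 of 6 were higher without rFGF4 mouse 1, and 3 of 6 (Dcn, Pdgfra and Pdgfrb) passed it upward without db/db mouse 5, where 2.22% of all genes did. The liver markers (Alb, Ttr, Serpina1a, Apoa1 and Fga) were 5 of 5 higher at a median of 1.18 on the log2 scale, with Serpina1a and Apoa1 past the threshold (Apoa1 alone without rFGF4 mouse 1 or without db/db mouse 5), and summed to between 277.8 and 582.9 FPKM in rFGF4 mice and between 182.9 and 349.8 FPKM in db/db mice. The red blood cell markers were 5 of 5 lower at a median of -1.97 on the log2 scale, and summed to between 120.3 and 2657 FPKM in rFGF4 mice and between 1139 and 4325 FPKM in db/db mice. None of these 5 passed the threshold over all 8 kidneys, without rFGF4 mouse 1 (median -1.13), where 0.337% of all genes passed it downward, or without that mouse and db/db mouse 5 together, where 0.469% did. All 5 passed it downward without rFGF4 mouse 5 or without db/db mouse 5, where 1.06% and 0.647% of all genes did. The part of any of these cells in the feedback values was not tested. In the same fit the log2 fold changes of Fgfr1, Fgfr3 and Fgfr4 were 0.42, 0.12 and 0.003, and that of Fgfr2 was -0.23.

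Around klotho, none of the 4 related genes passed the threshold and the median was 0.05 on the log2 scale, -0.018 without rFGF4 mouse 1 and 0.15 without db/db mouse 5. Adam10, a protease that sheds alpha-klotho, had a log2 fold change of 1.22 (standard error 0.58, adjusted p = 0.918 in limma). Adam10 passed the threshold upward when db/db mouse 5 or rFGF4 mouse 5 was left out, as did 2.22% and 2.77% of all tested genes. Lctl, another klotho family gene, had a log2 fold change of -0.07 (standard error 0.15). Of the 7 phosphate and vitamin D genes, 4 were higher and 3 lower, and 1 passed the threshold upward, as did 1.09% of all tested genes. Leaving out rFGF4 mouse 1 turned this to 6 higher and 1 lower, and their median from 0.03 to 0.13 on the log2 scale, whereas it was -0.036 without db/db mouse 5. The gene that passed was Cyp24a1, which degrades active vitamin D and is known as a target of FGF23 signalling through Kl. It measured 41.9, 227.3, 345.3 and 23.7 FPKM in rFGF4 mice 1, 2, 3 and 5 and 5.18, 3.82, 5.29 and 15.4 FPKM in db/db mice 2, 3, 4 and 5, so that each rFGF4 mouse exceeded each db/db mouse. The groups did not overlap in this direction in 2.66% of all tested genes, among them also the phosphate transporter Slc20a2 (log2 fold change 0.56, standard error 0.15, exact permutation p = 0.0286). Slc20a2 was named after its values were seen. It passed the threshold upward when rFGF4 mouse 5 was left out, as did 2.77% of all tested genes. The log2 fold change of Cyp24a1 was 3.68 (standard error 0.85, adjusted p = 0.918 in limma, exact permutation p = 0.0286). The lowest Kl of the series, in rFGF4 mouse 1, stood beside 41.9 FPKM of Cyp24a1, and the highest Kl of the rFGF4 group, in mouse 5, beside 23.7 FPKM. The Kl and Cyp24a1 values of the rFGF4 mice thus did not share an order. Without rFGF4 mouse 1, Cyp27b1, which makes active vitamin D and was named after its values were seen, also passed, downward, as did 0.337% of all tested genes.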

How the data were processed

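RNA of kidney tissue from 8 mice was sequenced by the authors in paired-end libraries. The deposited table gives FPKM per gene, which the authors calculated after assembly with StringTie and merging with gffcompare. The submitters' processing notes also name HISAT2 2.0, Bowtie 0.12.2, StringTie 1.3.0 and the build mm8, and how the first 2 and the build were used is not given in the sources used here. Columns of the authors' own comparison (fold change, its log2, p and q) were not used. Of the 55401 Ensembl identifiers, 99.5% are in GENCODE M21 on GRCm38, from which positions were taken, and all 76 member transcripts named in the file were among them. Strand use in counting was not given, so sense and antisense reads may not have been told apart.

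Genes with at least 0.5 FPKM in 4 or more libraries were compared as log2(FPKM + 1) with limma 3.58.1 in R 4.3.3 (trend in the prior variance, Benjamini-Hochberg), because the count model of the methods cannot take FPKM. The procedure was tested on simulated data. Exact permutation tests and figures used Python 3.11.15 with scipy 1.17.1 and matplotlib 3.10.9. The order of levels was tested on ratios with 0.01 FPKM added. The 7 receptor and co-receptor genes were named by their symbols, with the 3 profiles most like each (standardised over the 8 libraries, no p), and from each of 7 pathway lists every gene past the study's threshold or else the 2 of smallest p. Other genes, among them those with values given for Klb's ligands, were named after their values were seen. Genes and lists, 12 marker lists included, were chosen with earlier results of these data known. Alternatives were another pseudocount, no filter, other scalings, array weights, a larger fold, a replicate block and each mouse left out. Leaving out rFGF4 mouse 1 and db/db mouse 5 together and the alternatives of the Fgfr1 and Kl correlation, and counts over pathway and marker lists without single mice, were added after seeing the data. Summed FPKM of the marker lists not given elsewhere, in rFGF4 and in db/db mice, ran from 977.4 to 1472 and 918.3 to 1344 (thick ascending limb), 206.7 to 357.1 and 254.3 to 374.4 (collecting duct) and 27.3 to 37.2 and 30.9 to 47.1 (endothelium).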

Additional observations from a re-analysis of the deposited data

Results flagged for a closer look

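In 6 of 52 groups of 4 samples that were examined, 1 kidney stood far from the other 3, with a gap to the nearest of them that passed Dixon's critical value as a share of the group's range. Chance gives about 1 such group in 20, or 2.6 of 52. Of the receptor genes these were Fgfr1 in db/db mouse 5, the highest of its group with a gap of 0.843 of the range, and Fgfr2 in rFGF4 mouse 3, the lowest of its group with a gap of 0.860. db/db mouse 5 was also the lowest of its group in summed FPKM (gap 0.840) and the highest in the stroma markers (gap 0.895) and in the B cell and lymph node markers (gap 0.936). rFGF4 mouse 1 was the lowest of its group in the thick ascending limb markers (gap 0.914). Without db/db mouse 5 the log2 fold change of Fgfr1 was 0.50, and without rFGF4 mouse 3 that of Fgfr2 was -0.18. Whether the cell content of db/db mouse 5 had a part in its Fgfr1 value was not tested.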

How the results depend on the processing

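Over 90 alternative fits of the 6 log2 fold changes, none brought a gene past the study's threshold, and 6 gave an unadjusted p under 0.05, 5 of them for Fgfr1 and 1 for Fgfr2. The sign turned in 10, for Kl under the replicate block given below and otherwise for Fgfr4, under that block, with any of 5 mice left out, after median-ratio scaling (-0.12), with array weights (-0.10) and without rFGF4 mouse 1 and db/db mouse 5 together (-0.040). Leaving out 1 mouse at a time gave ranges of 0.26 to 0.55 for Fgfr1, -0.28 to -0.18 for Fgfr2, 0.07 to 0.23 for Fgfr3, -0.061 to 0.11 for Fgfr4, 0.14 to 0.37 for Fgfrl1 and -0.87 to -0.04 for Kl, and -0.053 to 0.098 for the log2 ratio of Fgfr3 to Fgfrl1, which was -0.084 in the 4 rFGF4 kidneys alone. Between mice with the same number in the 2 groups, deviations from the group means correlated at -0.229, -0.155 and -0.393 for numbers 2, 3 and 5. These values cannot show whether such mice shared a litter, cage or batch. A replicate block, which leaves the comparison to these 6 mice, gave 0.22 for Fgfr1, -0.29 for Fgfr2, 0.28 for Fgfr3, -0.0064 for Fgfr4, 0.20 for Fgfrl1 and 0.079 for Kl, and 263 genes past the threshold. The 232 genes past the threshold became 496 with array weights, 54 at a fold of 2 and 188 to 580 with 1 mouse left out, 580 without rFGF4 mouse 5 and 434 without db/db mouse 5. They were 165 higher and 67 lower, 93 and 86 after median-ratio scaling, and 279 and 43 after scaling to the same sum without mitochondrial genes. After median-ratio scaling Fgfr1 and Fgfr2 were both among the 6 fits with an unadjusted p under 0.05, at log2 fold changes of 0.30 and -0.30. The share of all genes at that p after this scaling was not counted. The 0 genes at an adjusted p under 0.05 (700 at an unadjusted one) became 1 with no filter and 0 to 1 with 1 mouse left out. The cause of these shifts was not tested. Depth is unknown, so no counting error can be given for any value, least of all for Klb.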
